A study of Mus musculus with 9 samples.

Results

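The genes examined here encode cohesin, the proteins that load and release it, and CTCF. They are 10 of the 48795 gene IDs in the count tables, taken by their Ensembl IDs: Smc1a, Smc3, Rad21, Stag1 and Stag2 (the ring), Nipbl (the loader), Wapl, Pds5a and Pds5b (release), and Ctcf. Follicular B cells were selected on CD23 from spleens of C57Bl/6 mice carrying a floxed Yy1 gene (yy1 fl/fl) in both groups, so the mock cells carry the same alleles. The tatcre cells received TAT-CRE, a cell-permeable Cre recombinase that excises the floxed sequence, and the mock cells a mock treatment. Both were activated in culture by LPS with IL-4, for 72 hours in 10% serum by the text on the series and for 48 hours in 20% serum by the text on the samples, which also lists TAT-CRE for every sample. Groups were taken from the titles. There were 3 mock and 3 tatcre RNA libraries. No library of recombinase-treated cells without the floxed alleles is among them, so recombinase exposure and Yy1 loss cannot be told apart. The sources used here give no age for the mice.

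Cohesin is a ring that holds DNA. Smc1a and Smc3 encode its long coiled-coil arms, Rad21 the kleisin that closes the ring, and Stag1 and Stag2 alternative subunits that bind the kleisin. NIPBL places cohesin on chromatin and drives loop extrusion, WAPL with a PDS5 protein opens the ring, and CTCF bound to DNA halts it, which sets the ends of many chromatin loops. In B cells such loops contract the immunoglobulin heavy chain locus and bring switch regions together, and the ring also holds sister chromatids until mitosis. YY1, a zinc finger factor encoded by Yy1, binds promoters and enhancers and is another protein reported to link such elements.

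To show where the letters of a YY1 site occur near these genes, the RefSeq promoter windows (GRCm38.p6, 250 bases before to 50 after the annotated start) were searched on both strands for AANATGGC and GATGGCGG, which share the letters ATGGC. Windows were at hand for 7 of the 10 genes: Smc1a, Smc3, Stag1, Wapl, Pds5a, Pds5b and Ctcf. AANATGGC occurred in 4 of them, against 6.05% of the 32851 promoters in the table, and GATGGCGG in none, against 1.7%. Those shares cover all promoters, not ones matched in base content or expression, so an enrichment was not tested. No window was at hand for Rad21. In Smc3 the match begins at the annotated start itself, counted as base 1, and in Ctcf at base 11, each time read from the opposite strand as GCCATTTT. In Pds5b it lies 37 bases before the start and in Stag1 202 bases before it. The starts of the windows need not be the outer ends of the genes. The Stag1 and Wapl windows lie wholly inside the gene spans printed below, and the Ctcf and Pds5b starts lie inside theirs. The sequences run 5′ to 3′ from 220 bases before to 30 after the start used in the RefSeq table, with the match in capitals. Wapl, whose RNA passed the test below, is shown for comparison and has no match. Smc1a and Pds5a had none either.
Smc3 (chr19:53600176-53600425, plus strand): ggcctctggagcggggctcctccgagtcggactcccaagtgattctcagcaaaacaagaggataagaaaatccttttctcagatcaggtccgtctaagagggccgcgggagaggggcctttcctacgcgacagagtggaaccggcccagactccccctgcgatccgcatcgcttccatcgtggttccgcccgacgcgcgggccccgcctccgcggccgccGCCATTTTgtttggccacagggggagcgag
Ctcf (chr8:105636318-105636567, plus strand): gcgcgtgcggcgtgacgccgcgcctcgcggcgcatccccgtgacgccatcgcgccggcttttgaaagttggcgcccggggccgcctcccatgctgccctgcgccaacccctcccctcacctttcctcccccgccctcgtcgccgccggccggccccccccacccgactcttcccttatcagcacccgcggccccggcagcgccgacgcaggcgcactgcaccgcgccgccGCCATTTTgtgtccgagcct
Pds5b (chr5:150673607-150673856, plus strand): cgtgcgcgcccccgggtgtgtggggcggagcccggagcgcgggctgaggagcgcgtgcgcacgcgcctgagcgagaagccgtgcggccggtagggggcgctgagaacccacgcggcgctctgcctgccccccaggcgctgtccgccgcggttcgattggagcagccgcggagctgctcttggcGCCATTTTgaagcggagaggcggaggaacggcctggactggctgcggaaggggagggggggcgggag
Stag1 (chr9:100643228-100643477, plus strand): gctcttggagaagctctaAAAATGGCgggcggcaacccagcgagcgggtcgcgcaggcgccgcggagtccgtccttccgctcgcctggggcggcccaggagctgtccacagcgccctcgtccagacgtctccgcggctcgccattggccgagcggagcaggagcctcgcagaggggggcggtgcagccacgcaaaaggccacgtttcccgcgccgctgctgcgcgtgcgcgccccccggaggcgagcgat
Wapl (chr14:34673708-34673957, plus strand): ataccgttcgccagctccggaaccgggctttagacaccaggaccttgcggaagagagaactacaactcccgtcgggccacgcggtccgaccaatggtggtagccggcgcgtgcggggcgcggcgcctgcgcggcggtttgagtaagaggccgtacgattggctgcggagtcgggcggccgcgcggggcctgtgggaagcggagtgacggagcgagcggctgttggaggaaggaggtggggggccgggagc
A match of letters is not a measured binding site. The YY1 peak lists of the series, labelled mm10, were not placed on these promoters, because the build of their positions could not be settled. Their chromosome 1 peaks run to base 197067934, past the end of the last RefSeq gene on that chromosome at 195291439.

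The libraries held 22729187 to 28230727 gene counts, of which 0.402 to 0.435% in mock and 0.503 to 0.577% in tatcre libraries fell on the 10 genes. Yy1 (ENSMUSG00000021264) had 2655, 3018 and 2542 counts in mock and 24, 36 and 50 in tatcre libraries. The labelled cell type matched its markers: the 7 B cell genes summed to 5050 to 5330 CPM in mock and 4130 to 4200 CPM in tatcre libraries, where CPM is the count scaled to 1000000 counts per library after TMM adjustment. The neutrophil, NK cell and erythroid markers each summed to at most 0.209 CPM, and the defining T cell genes Cd3e, Cd3d, Cd3g and Cd4 were each at or below 0.501 CPM. Thy1 (189 to 239 CPM in mock, 103 to 115 CPM in tatcre libraries) made up nearly all of the T cell list, and Cd68 (22 to 26.9 and 10.4 to 14.1 CPM) most of the macrophage list, whose Lyz2 was at or near 0. Plasma cell markers summed to 352 to 408 CPM in mock and 307 to 358 CPM in tatcre libraries, and stromal markers to at most 3.17 CPM. In bulk RNA, fewer cells of a type and less RNA per cell cannot be told apart. By the series text the cells came from spleens of 3 mice, each split between the treatments, so mock and tatcre libraries may share mice, but the labels do not tie libraries to mice. The p-values thus rest on the spread among libraries, which may be technical.

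The comparison of tatcre with mock cells asks whether RNA for the looping machinery changes when activated B cells lose YY1. Rad21, Smc3 and Wapl rose in tatcre cells, by 67.2, 25.8 and 20.5%, and none of the 10 genes fell (edgeR quasi-likelihood test, Benjamini-Hochberg adjusted p under 0.05). The other 7 did not pass, and their log2 fold changes ran from -0.04 for Smc1a to 0.18 for Nipbl. The median log2 fold change of the 10 genes was 0.16, against 0.02 over all 15546 tested genes and -0.08 over the 2343 genes within the same range of mean expression. The background is that 27.1% of all tested genes were called, 10.8% higher and 16.3% lower. Within that expression range the shares were 10.2% higher and 26.3% lower. In CPM, 4 of the 10 genes had all tatcre libraries above all mock libraries, which held for 20.6% of tested genes, and no gene had the reverse, which held for 23.3%. Within the same expression range these shares were 17.2 and 34.5%. All 10 genes passed the low-count filter in both groups, with at least 2267 counts in every library. Counts are not divided by transcript length, so levels are compared between groups and not between genes.

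**Figure D1:**
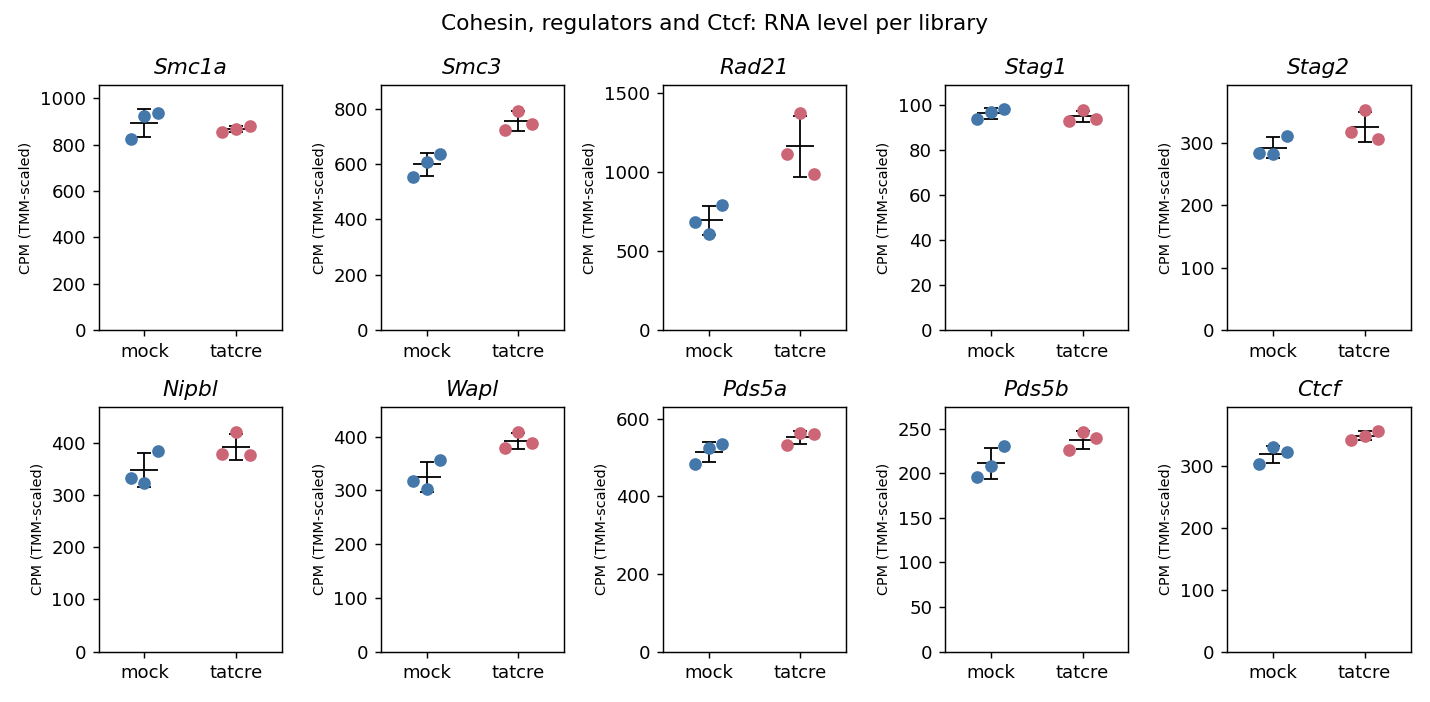
RNA level of each gene in every library (y axis, TMM-scaled CPM, from 0), with mock libraries in blue and tatcre libraries in red, replicates 1 to 3 from left to right; horizontal ticks are means and bars are SD (n = 3). The groups separate for Smc3, Rad21, Wapl and Ctcf and overlap for the other genes.

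Rad21 (ENSMUSG00000022314, chromosome 15, 51962604 to 51993538 in GRCm38), the kleisin gene, had the largest difference of the 10. It stood at 681, 609 and 788 CPM in the mock libraries and at 1110, 1370 and 989 CPM in the tatcre libraries. The lowest tatcre library lay above the highest mock library, although the tatcre libraries themselves ranged widely. Means and SDs over 3 libraries were 693 ± 89.8 CPM without and 1160 ± 195 CPM with TAT-CRE, a log2 fold change of 0.74 (SE 0.12, 95% interval 0.47 to 1.01, edgeR adjusted p = 0.0014). Of all tested genes, 20.4% had a larger change in either direction, a share that includes genes of far lower expression. Within the same range of mean expression, log2 fold changes ran from -1.8 to 1.22.

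Smc3 (ENSMUSG00000024974, chromosome 19, 53600396 to 53645831), which carries the lysines whose acetylation stabilises the ring, stood at 554, 607 and 636 CPM in mock and at 724, 793 and 744 CPM in tatcre libraries. The groups did not overlap and the spread within each was small. The means were 599 ± 41.9 and 754 ± 35.7 CPM (log2 fold change 0.33, SE 0.08, 95% interval 0.16 to 0.50, edgeR adjusted p = 0.00859). Its partner arm Smc1a (ENSMUSG00000041133, chromosome X, 152016428 to 152061973) stood at 826, 924 and 937 CPM in mock and at 856, 869 and 881 CPM in tatcre libraries. All tatcre values of Smc1a lay inside the mock range. Its log2 fold change of -0.04 (95% interval -0.20 to 0.11, edgeR adjusted p = 0.676) was 0.03 with upper-quartile factors and 0.06 with library size alone, so its sign depends on scaling.

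The alternative STAG subunits did not pass the test. Stag2 (ENSMUSG00000025862, chromosome X, 42149297 to 42277186) stood at 285, 282 and 312 CPM in mock and at 318, 354 and 307 CPM in tatcre libraries, where tatcre 3 lay below mock 3. Its log2 fold change was 0.16 (95% interval -0.02 to 0.34, edgeR adjusted p = 0.178). Stag1 (ENSMUSG00000037286, chromosome 9, 100597709 to 100958544) stood at 93.5, 97 and 98.1 CPM in mock and at 92.9, 97.8 and 93.6 CPM in tatcre libraries. Its groups overlapped almost fully, with a log2 fold change of -0.02 (95% interval -0.18 to 0.14, edgeR adjusted p = 0.849) that was 0.05 with upper-quartile factors and 0.08 with library size alone. The ring genes were thus spread from Stag1 and Smc1a, near 0, to Rad21, and their summed level was 2439, 2519 and 2770 CPM in mock and 3103, 3486 and 3015 CPM in tatcre libraries.

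Among loading and release factors, Wapl passed the test and Nipbl did not, with intervals that overlap widely. Nipbl (ENSMUSG00000022141, chromosome 15, 8289824 to 8465315) stood at 333, 323 and 384 CPM in mock and at 379, 421 and 377 CPM in tatcre libraries. Mock 3 lay among the tatcre libraries, and the log2 fold change was 0.18 (95% interval -0.01 to 0.37, edgeR adjusted p = 0.15). Wapl (ENSMUSG00000041408, chromosome 14, 34672379 to 34747983) stood at 318, 303 and 356 CPM in mock and at 380, 409 and 388 CPM in tatcre libraries. These groups were separate, at 325 ± 27.3 and 392 ± 15.3 CPM (log2 fold change 0.27, SE 0.08, 95% interval 0.09 to 0.45, edgeR adjusted p = 0.0297). The Wapl call is fragile: leaving out mock 1, mock 2, tatcre 1, tatcre 2 or tatcre 3 ended it (edgeR adjusted p = 0.069, 0.12, 0.0949, 0.0678 and 0.078), and so did a block for the replicate number (adjusted p = 0.061 by edgeR).

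The PDS5 genes, whose proteins work with WAPL in release and also support acetylation of SMC3, differed little. Pds5a (ENSMUSG00000029202, chromosome 5, 65605719 to 65698236) stood at 484, 524 and 534 CPM in mock and at 532, 564 and 560 CPM in tatcre libraries. Only tatcre 1 and mock 3 crossed, and the log2 fold change was 0.10 (95% interval -0.05 to 0.26, edgeR adjusted p = 0.304). Pds5b (ENSMUSG00000034021, chromosome 5, 150673713 to 150810669) stood at 196, 208 and 231 CPM in mock and at 226, 246 and 239 CPM in tatcre libraries. Here too tatcre 1 lay below mock 3, with a log2 fold change of 0.16 (95% interval -0.02 to 0.34, edgeR adjusted p = 0.163).

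Ctcf (ENSMUSG00000005698, chromosome 8, 105636474 to 105682922) stood at 304, 331 and 323 CPM in mock and at 342, 349 and 358 CPM in tatcre libraries. Every tatcre library lay above every mock library, but the 95% interval of the change included 0. The means were 320 ± 13.8 and 350 ± 7.82 CPM, a log2 fold change of 0.13 (SE 0.07, 95% interval -0.03 to 0.28, edgeR adjusted p = 0.197). The upper end of that interval lies below the lower end of the interval of Rad21.

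**Figure D2:**
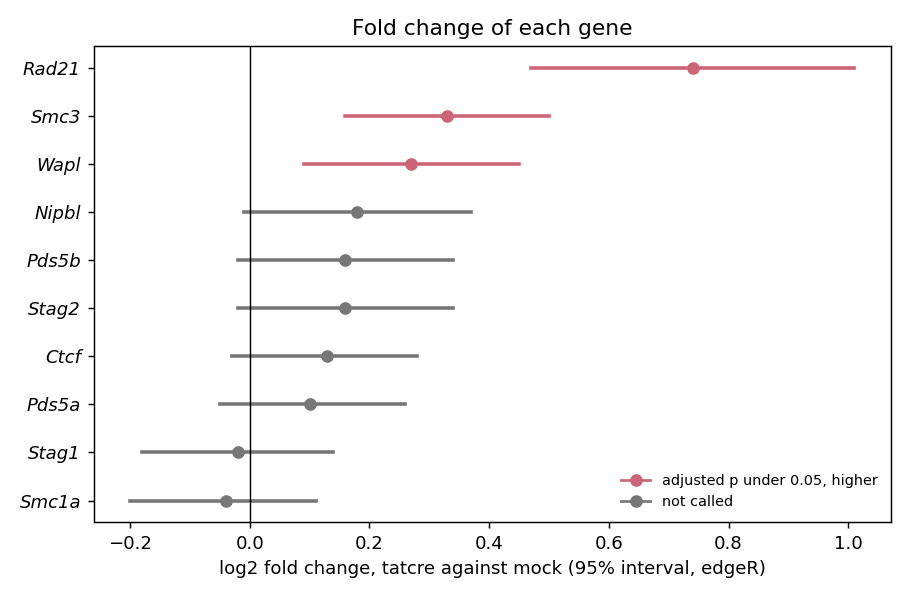
Log2 fold change of each gene, tatcre against mock (x axis; points are edgeR estimates and lines their 95% intervals, 3 libraries a group), with called genes in red and the others in gray. Rad21 at 0.74, Smc3 at 0.33 and Wapl at 0.27 passed the test, and the intervals of the other 7 genes include 0.

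How many of these genes pass depends on how libraries are scaled. With RLE factors the same 3 genes were called higher. With upper-quartile factors 5 were called, adding Pds5b (edgeR adjusted p = 0.0483) and Ctcf (edgeR adjusted p = 0.0396), while 14.3% of all tested genes were called higher. With library size alone 8 were called, all but Smc1a and Stag1, and 16.8% of all tested genes were called higher, against 10.8% under TMM. The last scaling moves the median log2 fold change of all tested genes from 0.024 to 0.129, and the share of falls among all calls from 60.2 to 42% (48.5% with upper-quartile factors). Rad21 and Smc3 were called higher under every scaling, tool, block and left-out library tried, with log2 fold changes of 0.60 to 0.83 and 0.27 to 0.36 as libraries were left out.

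**Figure D3:**
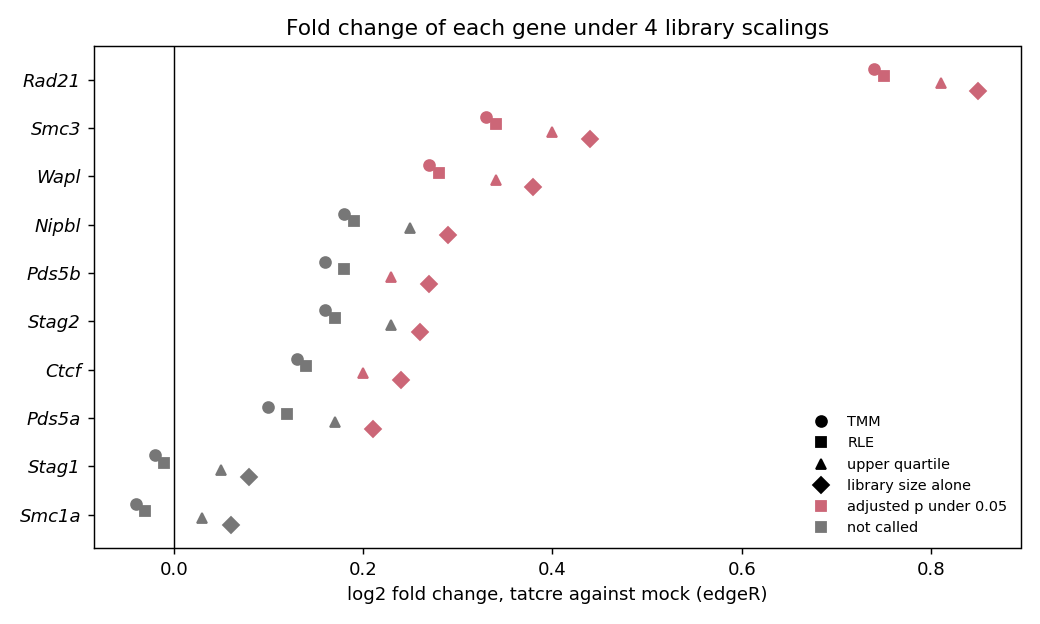
Log2 fold change of each gene (x axis, tatcre against mock, edgeR) under 4 library scalings, shown by marker shape, with calls in red. All genes shift together to the right from TMM to library size alone, by about as much as the median of all genes, and Smc1a and Stag1 change sign.

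Because a ratio of counts within a library does not depend on scaling, 4 ratios of gene pairs were compared by an exact two-sided permutation test over libraries, whose smallest possible p with 3 against 3 is 0.1. Counts of Ctcf per count of Rad21 were 0.447, 0.544 and 0.411 in mock and 0.308, 0.255 and 0.362 in tatcre libraries. All tatcre ratios lay below all mock ratios, with a difference of -0.61 on the log2 scale (mock -1.11 ± 0.21, tatcre -1.71 ± 0.25, SD, n = 3, exact p = 0.1, adjusted over the 4 ratios 0.133). Stag2 per Stag1 was 3.05, 2.91 and 3.17 in mock and 3.42, 3.62 and 3.28 in tatcre libraries. Those groups were also separate, by 0.18 on the log2 scale (exact p = 0.1, adjusted 0.133). The loader-to-release ratio, Nipbl per Wapl, was 1.05, 1.07 and 1.08 in mock and 0.999, 1.03 and 0.972 in tatcre libraries, a difference of -0.09 on the log2 scale (exact p = 0.1, adjusted 0.133). Pds5b per Pds5a overlapped between the groups, at 0.406, 0.396 and 0.432 in mock and 0.425, 0.436 and 0.426 in tatcre libraries (exact p = 0.3, adjusted 0.3). No ratio can pass 0.05 in this design. How often the ratios of other gene pairs separate was not counted. Of single tested genes, 20.6% had all tatcre libraries above all mock libraries, and 23.3% had the reverse. The log2 fold changes of the single genes were 0.74 for Rad21 and 0.13 for Ctcf, so the Ctcf to Rad21 difference largely restates that of Rad21.

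Within the ring, further ratios were chosen after the values had been seen, so their unequal change follows from the choice and carries no test. Rad21 per Smc1a was 0.825, 0.659 and 0.841 in mock and 1.3, 1.58 and 1.12 in tatcre libraries. Counts are not divided by transcript length, so only the change of a ratio between groups is read, not its level. Rad21 per Smc3 was 1.23, 1 and 1.24 in mock and 1.54, 1.73 and 1.33 in tatcre libraries. Smc3 per Smc1a was 0.67, 0.657 and 0.68 in mock and 0.846, 0.913 and 0.845 in tatcre libraries, the tightest of these ratios within a group. With each library left out in turn the differences stayed at 0.65 to 0.89, 0.30 to 0.50 and 0.34 to 0.39 on the log2 scale. These ranges use the same values that led to the choice of pairs.

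**Figure D4:**
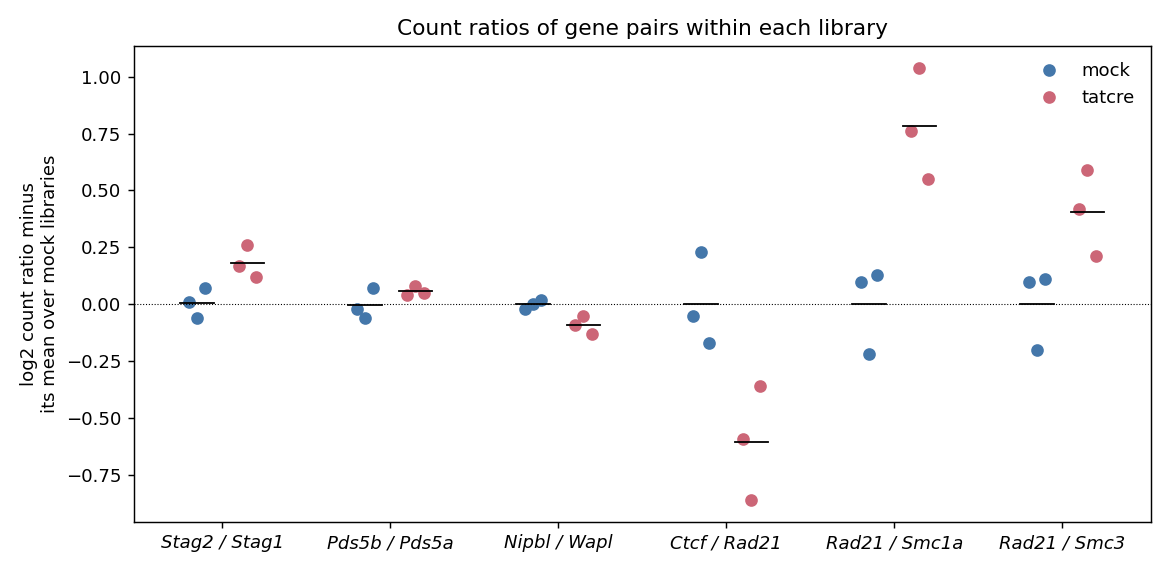
Log2 ratio of the counts of 6 gene pairs in each library, minus the mean of that ratio over the mock libraries (y axis, log2 units), with mock in blue, tatcre in red and black lines for means (n = 3). Ctcf per Rad21 is lower and Rad21 per Smc1a and per Smc3 higher in every tatcre library, while Pds5b per Pds5a overlaps. Rad21 per Smc1a and per Smc3 were chosen after the values had been seen.

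Most of the 10 genes also shared the highest library of each group. Mock 3 was the highest mock library for 9 of the 10, against 30.2% of all tested genes, and tatcre 2 the highest tatcre library for 8, against 36.7%. The lowest library was less shared: mock 1 for 6 and mock 2 for 4 genes, and tatcre 1 for 7 and tatcre 3 for 3. Counts were detected for 20420 genes in mock 3 and for 21875 to 23197 genes in the other libraries. The part of these shared highest libraries in the results was not tested. Without mock 3, Rad21 and Smc3 passed together with Wapl, and without tatcre 2, Rad21 and Smc3 passed.

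By the fixed measure of likeness, the root mean square difference of mean-centred log2 CPM over the 6 libraries, the genes nearest to Rad21 among 10436 compared were Zfp54, Ccng1, Zmat1 and Zfp942 (differences of 0.0497, 0.0534, 0.0574 and 0.0575 log2 units). Ccng1, which encodes cyclin G1, stood at 464, 418 and 516 CPM in mock and at 724, 845 and 632 CPM in tatcre libraries. Its order of libraries was that of Rad21, which the choice by likeness over these libraries favours. Of the other 9 of the 10 genes, Smc3 was the nearest to Rad21, at 0.25 log2 units, with 859 genes ahead of it.

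Outside the 10 genes, 16 other genes of the cohesin pathway were listed, of which 12 were tested, 2 rose, none fell and 10 did not pass. Over all tested genes 10.8% were called higher and 16.3% lower. Sgo1, the shugoshin that shields centromeric cohesin, stood at 91, 101 and 105 CPM in mock and at 152, 165 and 151 CPM in tatcre libraries. The groups were far apart for their spread, and the log2 fold change was 0.66 (SE 0.08, edgeR adjusted p = 0.000257). Hdac8, the deacetylase that recycles SMC3, stood at 20.8, 19.9 and 25.8 CPM in mock and at 33.5, 37 and 32.2 CPM in tatcre libraries, again without overlap (log2 fold change 0.63, SE 0.12, edgeR adjusted p = 0.00247). Of the 12 tested genes, 4 had all tatcre libraries above all mock libraries and 1 the reverse, against 20.6 and 23.3% of tested genes. The acetyltransferase genes Esco1 and Esco2 and the sororin gene Cdca5 were not called, with log2 fold changes of 0.07, 0.15 and -0.18. Mau2, the partner of NIPBL, missed the threshold at 0.28 (edgeR adjusted p = 0.0507) and was called higher with RLE factors (edgeR adjusted p = 0.0381), upper-quartile factors (0.0222), library size alone (0.0162) and DESeq2 (adjusted p = 0.0386). Separase (Espl1), securin (Pttg1), Sgo2a and Haspin were not called, nor was Plk1 at -0.31 (edgeR adjusted p = 0.0861), which was called lower with DESeq2 (adjusted p = 0.0469) and without mock 3 or tatcre 3 (edgeR adjusted p = 0.0336 and 0.0285). Of the germline forms, Stag3 had 2.87 to 4.11 CPM in mock and 4.43 to 6.13 CPM in tatcre libraries and was not called, and Smc1b, Rec8, Rad21l and Ctcfl were too low to test.

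Of 8 listed partners in chromosome folding, 2 rose, 1 fell and 5 did not pass, against 10.8% higher and 16.3% lower over all tested genes. Top2b, the topoisomerase found with cohesin and CTCF at loop ends, stood at 616, 605 and 635 CPM in mock and at 761, 828 and 728 CPM in tatcre libraries (log2 fold change 0.32, SE 0.07, edgeR adjusted p = 0.00776). Chd8, a chromatin remodeller that binds CTCF, stood at 149, 150 and 153 CPM in mock and at 196, 190 and 206 CPM in tatcre libraries (log2 fold change 0.39, SE 0.07, edgeR adjusted p = 0.00248). Both genes had separate groups, with Chd8 the tighter. Of the 8 partners, 3 had all tatcre libraries above all mock libraries and 2 the reverse, against 20.6 and 23.3% of tested genes. Smchd1 and Zfp143, which were not called, are among them. Patz1, a zinc finger factor, stood at 18.6, 25.5 and 21.5 CPM in mock and at 14.1, 13.1 and 15.2 CPM in tatcre libraries, a fall (log2 fold change -0.63, SE 0.13, edgeR adjusted p = 0.00493). Zfp143, Maz, Ldb1, Hnrnpu and Smchd1 were not called, with log2 fold changes from -0.16 to 0.20; Smchd1 was called higher with upper-quartile factors and library size alone (edgeR adjusted p = 0.02 and 0.00855) and with DESeq2 (adjusted p = 0.0312). The calls of Sgo1, Hdac8, Top2b, Chd8 and Patz1 held under each alternative run.

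**Figure D5:**
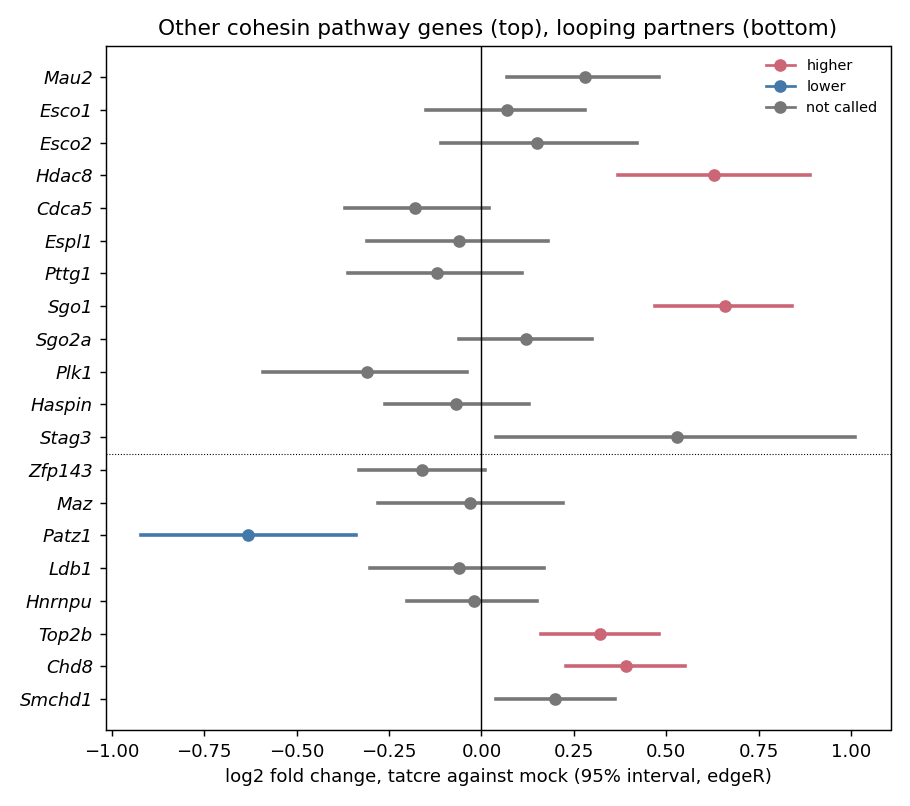
Log2 fold change of 12 tested cohesin pathway genes (above the dotted line) and 8 looping partners (below it), tatcre against mock (x axis; points are edgeR estimates, lines 95% intervals, 3 libraries a group). Hdac8, Sgo1, Top2b and Chd8 are higher, Patz1 is lower, and the gray genes did not pass the test.

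Of 9 genes of cycling cells, read beside these results as markers of proliferation, 4 fell, none rose and 5 did not pass. The shares over all tested genes were 16.3% lower and 10.8% higher. The falls were in the replicative helicase, with Mcm5 at 341, 388 and 341 CPM in mock and 183, 159 and 194 CPM in tatcre libraries (log2 fold change -1, edgeR adjusted p = 3.4e-05), and smaller for Mcm2, Mcm3 and Mcm6 (-0.39, -0.33 and -0.26). The falls of Mcm2 and Mcm6 were lost with library size alone (edgeR adjusted p = 0.0593 and 0.0784) and without tatcre 1 (0.0584 and 0.0633), and that of Mcm2 also without mock 2 or tatcre 2 and with a replicate block (adjusted p = 0.0838, 0.0607 and 0.0582). Mki67 and Top2a were not called, with log2 fold changes of 0.12 and 0.08. Both had all tatcre libraries above all mock libraries, which held for 20.6% of tested genes. The 4 Mcm genes had the reverse, which held for 23.3%. The part of these changes in the cohesin results was not tested.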

How the data were processed

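The authors deposited unnormalized counts for each Ensembl gene. These came from Trimmomatic, TopHat2, SAMtools and HTSeq on mm10, per the submitters' processing notes, and per the labels' protocols the RNA kit was stranded. The sources used here give no annotation, strand setting or rule for multiply mapped reads, so reads of genes that overlap a member cannot be told apart with certainty. Examples are Ribc1 and Gm15267 with Smc1a, and Gm5914 and Gm5915 with Ctcf. Of the called genes, Rad21 overlaps Gm52217 and Wapl overlaps 5830448L01Rik, neither of which was found by symbol among the counted genes. Symbols matched 48349 of 48795 IDs. RefSeq gene positions on GRCm38 are printed.

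Genes were filtered with filterByExpr (minimum count 10, minimum total 15), scaled by TMM and fitted once over all 15546 with edgeR 4.0.16 (R 4.3.3), Benjamini-Hochberg threshold 0.05, and standard errors were taken from the fitted change and its F statistic. CPM uses TMM-scaled library sizes. Every member had at least 2267 counts in each library. The biological coefficient of variation, fitted in common over all tested genes, was 0.129. Single members could spread less, as did Stag1 (96.2 ± 2.4 CPM in mock libraries), and there counting error is not small beside the spread. Alternatives were RLE, upper-quartile and no scaling factors, no count filter, DESeq2 1.42.0, limma voom 3.58.1, a replicate block and each library left out. Every pair of libraries differed beyond sampling noise (chi-square per degree of freedom at least 7.5). Equal replicate numbers did not clearly pair libraries (correlations 0.06, -0.03 and 0.23). All 10 members, and every called gene of the other lists, were named by rule; others were added. Members and lists were chosen with earlier results of these data known. The ChIP peak lists were not used.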

Additional observations from a re-analysis of the deposited data

How the results depend on the processing

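Rad21 and Smc3 kept their call under every alternative run. The count of the 10 genes called higher, 3 as reported, was 5 with upper-quartile factors and 8 with library size alone, fits in which 14.3 and 16.8% of all tested genes were called higher, and 2 to 3 as libraries were left out; the count called lower was 0 in each. The count of other cohesin pathway genes called higher, 2 as reported, was 3 with RLE factors, upper-quartile factors and DESeq2 (adding Mau2). It was 4 with library size alone (adding Mau2 and Stag3), and 2 in each fit with a library left out. The count of such genes called lower, 0 as reported, was 1 without the low-count filter and 1 with DESeq2, and 0 to 1 as libraries were left out, Plk1 each time. The count of looping partners called higher, 2 as reported, was 3 with upper-quartile factors, library size alone and DESeq2 (adding Smchd1). In each fit with a library left out the counts of looping partners were 2 higher and 1 lower. With upper-quartile factors and library size alone the log2 fold change of Smc1a was 0.03 and 0.06 and that of Stag1 0.05 and 0.08, opposite in sign to the reported values; the other scaling shifts all genes. With the replicate number as a block 2 of the 10 genes were called higher, Rad21 and Smc3, and 3421 genes in all against 4215; for the 4 ratios the replicate block gives the same difference by construction (-0.61 for Ctcf to Rad21). Leaving out a library gave differences of 0.14 to 0.21 for Stag2 to Stag1, 0.03 to 0.10 for Pds5b to Pds5a, -0.11 to -0.07 for Nipbl to Wapl and -0.73 to -0.48 for Ctcf to Rad21. The ratios chosen later, and the alternatives for genes beyond the 10, were added after seeing the data. With 3 libraries a group, changes of the size seen for Ctcf or Nipbl did not pass the test under TMM scaling.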
